A study of Mus musculus with 9 samples.

Results

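The 10 genes described here are Pdyn, Sost, Stc1, Srpx2, Itih5, Ngfr, Ptpro, Btnl9, Otof and Cyp1b1. They were chosen by their read counts in these same libraries, as genes whose level was highest in the sorted population named Leydig against both others, Interstitial and Sertoli. All 10 were found by symbol among the 38560 genes of the count table. The samples came from gonads of Sf1-eGFP mouse embryos at 12.5 days post coitum, classed as testes by their cords. In this strain a green fluorescent protein is driven by regulatory sequence of Sf1 (Nr5a1), a steroidogenic factor made in the somatic cells of the gonad. All groups share the transgene, the age and the removal of CD31-stained germ and endothelial cells, and they differ in the sorting gate, for which these sources give no detail. Each population has 3 libraries of total RNA, A, B and C. Samples A and B each pool about 10 sorts from different days, and C was taken, by elimination, as the mix of A and B that the protocol describes. The labels do not say which letter is the mix.

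The fetal testis holds cords of Sertoli cells around the germ cells, and an interstitium of androgen-making Leydig cells, their progenitors, vessels and macrophages. The 10 genes do not form a pathway. Their products act as secreted signals (Pdyn, Sost, Stc1, Srpx2), in the matrix (Itih5), at the cell surface (Ngfr, Ptpro, Btnl9), in vesicle fusion (Otof) and in steroid and retinoid oxidation (Cyp1b1).

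Per library, 33.12 to 39.24 M reads (M, mega) fell in genes, and 18048 genes passed the low-count filter. The Leydig sort was only in part set apart by genes of steroid synthesis. Star, which brings cholesterol into mitochondria, stood at 70.3, 44 and 60.8 CPM (TMM-normalised counts per M reads in genes) in Leydig replicates A, B and C. It stood at 12.2, 10.2 and 12.2 CPM in Interstitial and at 50.6, 47.1 and 48 CPM in Sertoli. With edgeR's quasi-likelihood test, Leydig exceeded Interstitial for 6 of 6 genes that mark fetal Leydig cells. Over all genes tested that comparison called 45.1%, 22% as higher in Leydig and 23.2% as higher in Interstitial. Between Leydig and Sertoli none of the 6 was called by edgeR, where 37.5% of all genes were, 16.9% as higher in Leydig and 20.6% as higher in Sertoli, so the population is called the Leydig sort here. Of 8 genes that mark Sertoli cells, 7 were higher in Leydig than in Interstitial and 1 was lower, and 8 were lower in Leydig than in Sertoli. Their summed level was 1110 to 1160 CPM in Leydig, 244 to 286 in Interstitial and 3260 to 3520 in Sertoli. In these bulk samples, fewer cells of a type and less RNA per cell cannot be told apart.

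Promoters from RefSeq (GRCm38.p6, 250 bases before to 50 after the annotated start) were on hand for 8 of the 10 genes, not for Otof or Stc1. The 4 printed here belong to the 2 most abundant of the 10 genes, Cyp1b1 and Ngfr, and to Btnl9 and Sost, whose Interstitial and Sertoli levels lay farthest apart. Capitals mark motifs found by the search on both strands. These are GCGTG, the core of the xenobiotic response element, in Cyp1b1 and Ngfr, and the TATA box sequence TATAAA in Btnl9. Each match is on the reverse strand of the printed letters, and that in Btnl9 lies at -118 from the annotated start. Sost holds none of the motifs searched. Its promoter is on the minus strand at chr11:101966966-101967265, as are those of Btnl9 at chr11:49187040-49187339, Ngfr at chr11:95587649-95587948 and Cyp1b1 at chr17:79715012-79715311.
Cyp1b1: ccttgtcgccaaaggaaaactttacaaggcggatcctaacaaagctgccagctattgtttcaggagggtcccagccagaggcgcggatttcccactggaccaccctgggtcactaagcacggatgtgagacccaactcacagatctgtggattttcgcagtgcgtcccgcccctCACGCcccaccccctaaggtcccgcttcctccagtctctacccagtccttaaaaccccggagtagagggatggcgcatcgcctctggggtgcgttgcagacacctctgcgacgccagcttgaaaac
Ngfr: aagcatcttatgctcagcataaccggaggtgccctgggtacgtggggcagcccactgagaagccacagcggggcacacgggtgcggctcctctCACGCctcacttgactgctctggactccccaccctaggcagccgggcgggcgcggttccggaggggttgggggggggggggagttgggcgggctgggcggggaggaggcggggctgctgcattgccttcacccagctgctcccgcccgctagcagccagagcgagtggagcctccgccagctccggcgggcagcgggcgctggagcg
Btnl9: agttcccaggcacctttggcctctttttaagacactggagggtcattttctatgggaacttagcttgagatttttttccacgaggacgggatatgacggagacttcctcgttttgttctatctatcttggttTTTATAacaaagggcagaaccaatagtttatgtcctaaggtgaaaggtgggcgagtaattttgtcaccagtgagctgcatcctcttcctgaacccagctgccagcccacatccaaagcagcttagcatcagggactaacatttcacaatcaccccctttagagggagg
Sost: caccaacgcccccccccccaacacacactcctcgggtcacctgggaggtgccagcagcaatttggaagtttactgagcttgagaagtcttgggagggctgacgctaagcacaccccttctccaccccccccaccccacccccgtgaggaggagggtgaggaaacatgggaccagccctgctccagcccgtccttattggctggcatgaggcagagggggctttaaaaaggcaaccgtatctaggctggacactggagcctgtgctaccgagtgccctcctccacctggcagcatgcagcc
The GCGTG core was present in 3 of the 8 genes (Cyp1b1, Itih5 and Ngfr) and in 32.4% of the 32851 promoters of this table. The GATA factor site GATAAG was found in Ptpro (7.44% of all promoters), the AP-1 site TGANTCA in Srpx2 (7.81%) and TATAAA in Btnl9 (13.6%). Neither the NR5A1 site CAAGGTCA (1.56%) nor the shorter nuclear receptor site AGGTCA within it (16.3%) occurred in the 300 bases of any of the 8 genes. The same held for the cAMP response element TGACGTCA (1.79%), the GLI site GACCACCCA (0.253%) and the TCF/LEF site CTTTGAA (5.14%). GC content varied from 43.3% in Srpx2 to 71.7% in Ngfr, around a median of 52.7% over all promoters.

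In every case the 3 Leydig libraries lay above the 6 others, and the Leydig mean was 2.12 to 2.95 times that of the higher of the other sorts. This was the ground on which the genes were listed, so no test of it is given. All Leydig libraries were above all others for 8.57% of the genes tested, and 0.427% had a Leydig mean at least 2-fold above both. The list is a selection from such genes. Itih5 had the lowest ratio (2.12), and 35 genes with at least 2 CPM in Leydig stood at or over it, 9 of them from the list. Just inside it lay the endothelial gene Sox17 (2.12) and just outside it the complement gene C7 (2.07). Of the 10 genes, 9 passed the low-count filter in every population. Sost passed it through the Leydig libraries, since 1 of 2 Interstitial and none of the Sertoli libraries reached 0.289 CPM.

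**Figure D1:**
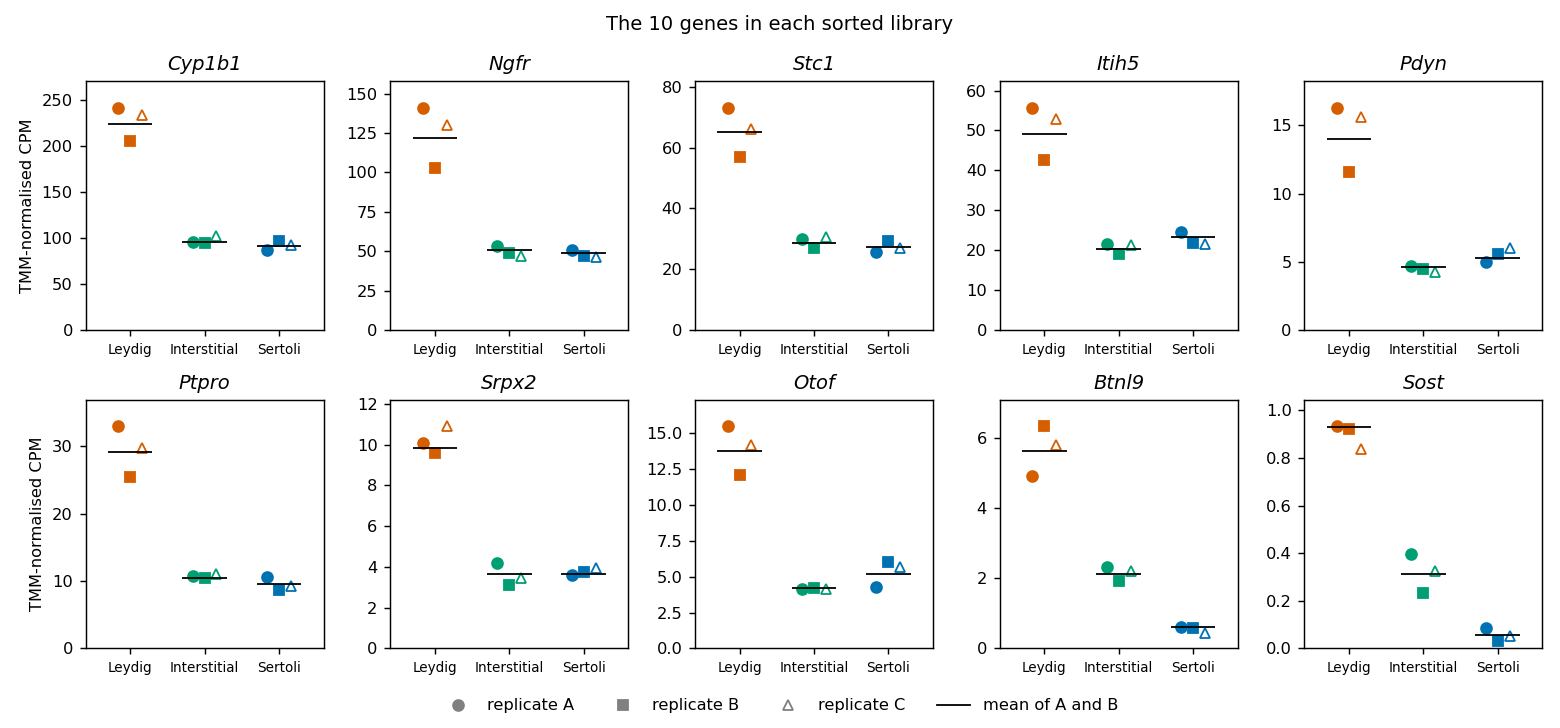
Normalised CPM (linear axis from 0) of the 10 genes in each library, by sorted population. Points are libraries, with replicate C open, and lines are means of A and B. The Leydig points lie above all others in each panel, and the Interstitial points lie well above the Sertoli points for Btnl9 and Sost.

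Per kilobase of exon, the order of the 10 genes in Leydig ran from Cyp1b1 to Sost. Cyp1b1 was at 38.4 ± 4.37 CPM per kilobase (SD, n = 2) and Ngfr at 35.5 ± 7.8, and their libraries overlapped. Stc1 followed at 15.5 ± 2.7. Itih5 (6.23 ± 1.17), Pdyn (4.85 ± 1.15) and Ptpro (4.34 ± 0.801) came next, each overlapping its neighbour. Srpx2 (3.37 ± 0.131), Otof (1.74 ± 0.311), Btnl9 (0.929 ± 0.168) and Sost (0.449 ± 0.00355) each lay apart from the next.

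Among the secreted products, Pdyn encodes prodynorphin, the precursor of the dynorphin opioid peptides (ENSMUSG00000027400, GRCm38 chromosome 2, 129686565 to 129699844, minus strand). It was at 16.3, 11.6 and 15.6 CPM in Leydig replicates A, B and C, at 4.7, 4.48 and 4.26 in Interstitial and at 5, 5.55 and 6.03 in Sertoli. The Leydig libraries stood highest, and the Interstitial libraries lay below the Sertoli libraries without overlap. The log2 difference was 1.62 ± 0.18 against Interstitial and 1.37 ± 0.18 against Sertoli (edgeR fit, SE).

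Sost encodes sclerostin, a secreted inhibitor of Wnt signalling that binds the receptors LRP4, LRP5 and LRP6 and is best known from bone. The gene lies at ENSMUSG00000001494, chromosome 11, 101962458 to 101967015. It was the scarcest of the 10, with 31, 32 and 31 reads in Leydig replicates A, B and C. It had 16, 8 and 13 reads in Interstitial and 3, 1 and 2 in Sertoli. In CPM it stood at 0.933, 0.923 and 0.839 in Leydig, at 0.396, 0.233 and 0.323 in Interstitial and at 0.0842, 0.0294 and 0.0539 in Sertoli. The 3 populations did not overlap. Over the summed reads of A and B, Leydig was 2.79 times Interstitial and 16.9 times Sertoli, given as a description.

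Stc1 encodes stanniocalcin 1, a secreted glycoprotein with roles in calcium and phosphate handling that also inhibits the protease PAPP-A (ENSMUSG00000014813, chromosome 14, 69029238 to 69041804, plus strand). It was at 73.1, 57 and 66.2 CPM in Leydig, at 29.9, 27.1 and 30.4 in Interstitial and at 25.6, 29.1 and 26.8 in Sertoli. The Leydig libraries stood apart and those of the other sorts overlapped. The antisense gene Gm41192 overlaps 415 bases of the Stc1 gene span. No source used here gives the strand setting of the counting, and reads from that stretch may not belong to Stc1 alone.

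Srpx2, on the X chromosome (ENSMUSG00000031253, 133908426 to 133932446, plus strand), encodes a secreted sushi-repeat protein that binds the urokinase receptor. It stood at 10.1, 9.57 and 10.9 CPM in Leydig, at 4.21, 3.12 and 3.43 in Interstitial and at 3.62, 3.73 and 3.96 in Sertoli. The Leydig replicates lay close together and the other sorts overlapped. Itih5 encodes a heavy chain of the inter-alpha-trypsin inhibitor family, proteins that bind hyaluronan in the matrix (ENSMUSG00000025780, chromosome 2, 10153571 to 10256529, plus strand). It was at 55.7, 42.7 and 52.9 CPM in Leydig, at 21.6, 19.1 and 21.3 in Interstitial and at 24.5, 21.9 and 21.6 in Sertoli. Its Leydig ratio was 2.42 to Interstitial and 2.12 to Sertoli, and the second of these was the smallest to Sertoli among the 10.

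Of the surface proteins, Ngfr encodes the low-affinity neurotrophin receptor p75, a marker of neural crest cells and also of some mesenchyme (ENSMUSG00000000120, chromosome 11, 95568818 to 95587735, minus strand). It was at 141, 103 and 130 CPM in Leydig, at 53, 48.7 and 46.7 in Interstitial and at 50.4, 46.7 and 46 in Sertoli. The Leydig libraries stood apart and the other sorts overlapped. Of 7 tested genes that mark neural crest and Schwann cells, Leydig exceeded Interstitial for 3 and fell below Sertoli for 5. Their summed level was 73.7 to 76.1 CPM in Leydig, 61.9 to 74.4 in Interstitial and 220 to 222 in Sertoli, and each of the 8 listed had reads in some library. Sox10, a defining factor of that lineage, was at 10.8 ± 1.35 CPM in Leydig, 1.96 ± 0.641 in Interstitial and 39.1 ± 1.81 in Sertoli (SD, n = 2). Sox10 is also known from Sertoli cells of the fetal testis. The part of neural crest cells in the Ngfr level was not tested.

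Ptpro encodes a receptor-type tyrosine phosphatase known from kidney podocytes (ENSMUSG00000030223, chromosome 6, 137252319 to 137463233, plus strand). It stood at 33, 25.4 and 29.7 CPM in Leydig, at 10.7, 10.4 and 11 in Interstitial and at 10.6, 8.69 and 9.29 in Sertoli. The gap between the lowest Leydig library and the highest of the others was the widest of the 10 genes, at 2.31-fold. The gene Gm44258, on the same strand, overlaps 301 bases of the Ptpro gene span, and reads from that stretch may not belong to Ptpro alone. Btnl9 encodes a butyrophilin-like membrane protein of the immunoglobulin superfamily (ENSMUSG00000040283, chromosome 11, 49165585 to 49187159, minus strand). It was at 4.91, 6.34 and 5.79 CPM in Leydig, at 2.33, 1.92 and 2.21 in Interstitial and at 0.618, 0.587 and 0.431 in Sertoli. The 3 populations did not overlap, and the Leydig mean was 2.65 times that of Interstitial and 9.34 times that of Sertoli.

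Btnl9 is known from endothelium, and CD31-stained cells were to be removed. Of 9 endothelial markers, 9 were higher in Leydig than in Sertoli with edgeR's test. Against Interstitial, 5 were higher in Leydig and 1 was lower. Their summed level was 247 to 284 CPM in Leydig, 260 to 297 in Interstitial and 46.4 to 49 in Sertoli, with none of them at 0. Cdh5, which encodes the endothelial cadherin, stood at 51.6 ± 0.704 CPM in Leydig, 35.8 ± 9.5 in Interstitial and 11.2 ± 0.96 in Sertoli (SD, n = 2). Pecam1, which encodes CD31, was the 1 marker lower in Leydig than in Interstitial. It stood at 30 ± 8.29 CPM in Leydig, 70.6 ± 3.4 in Interstitial and 10.9 ± 2.9 in Sertoli. Like Btnl9, the endothelial markers were higher in Leydig than in Sertoli, and 5 of the 9 exceeded Interstitial, with 1 lower. Their summed levels in Leydig and Interstitial overlapped, with Kdr (100 CPM) and Pecam1 (70.6 CPM) the largest terms in Interstitial. Against Sertoli, 7 of 7 macrophage markers and 6 of 7 mesothelial markers were also higher in Leydig. So were 7 of 9 tested pericyte and smooth muscle markers, with 1 lower. Against Interstitial, 7 macrophage and 6 mesothelial markers were lower in Leydig, while 4 pericyte and smooth muscle markers were higher and 2 lower. The part of these cell types in the Btnl9 level was not tested. Genes that mark interstitial progenitors exceeded Sertoli in 7 of 7 cases and Interstitial in 5. Their sums were 1410 to 1580 CPM in Leydig, 1060 to 1110 in Interstitial and 401 to 427 in Sertoli.

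Otof encodes otoferlin, a calcium sensor of vesicle release in the hair cells of the inner ear (ENSMUSG00000062372, chromosome 5, 30367062 to 30461932, minus strand). It was at 15.5, 12.1 and 14.2 CPM in Leydig, at 4.16, 4.22 and 4.11 in Interstitial and at 4.3, 6.02 and 5.71 in Sertoli. The Leydig libraries stood apart, the Interstitial libraries lay below the Sertoli libraries, and the Leydig mean was 3.29 times that of Interstitial. Cyp1b1 encodes a cytochrome P450 that oxidises oestradiol and retinoids and is induced through the aryl hydrocarbon receptor (ENSMUSG00000024087, chromosome 17, 79701537 to 79715061, minus strand). It was at 242, 206 and 234 CPM in Leydig, at 96.2, 94.4 and 102 in Interstitial and at 87.1, 96.8 and 92.1 in Sertoli. Per kilobase it was the most abundant of the 10 in each population, and the other sorts overlapped.

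In the authors' deposited tables, which list genes with a change of at least 2-fold, 9 of the 10 appear in Leydig against Sertoli and in Leydig against Interstitial. Sost appears in neither, although by summed reads here it was 2.79 times Interstitial and 16.9 times Sertoli in Leydig. The reason for its absence was not tested. In the authors' deposited table for Leydig against Interstitial the log2 fold changes ran from 1.14 for Stc1 to 1.71 for Otof. In the authors' deposited table for Leydig against Sertoli they ran from 1.15 for Itih5 to 3.37 for Btnl9. Btnl9 is also the only listed member in the authors' deposited table for Interstitial against Sertoli, with a log2 fold change of 2.

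The order of the other sorts was not used to choose the genes, and it was tested for the 9 genes that passed the low-count filter in every population. Btnl9 was higher in Interstitial than in Sertoli, and the remaining 8 were not called. The log2 difference of Btnl9 was 1.76 ± 0.26 (SE), with an edgeR adjusted p of 0.000407. Sost entered the fit through its Leydig libraries and is given with no call: its log2 difference was 2.35 ± 0.63, and its summed reads in Interstitial were 6.05 times those in Sertoli (exact 95% interval 2.08 to 24, counting error only). In this comparison edgeR called 61.8% of the genes tested, 32.7% as higher in Interstitial and 29.1% as higher in Sertoli. The share of the list that was called, 1 of 9, was below that background. The rule left out genes with Leydig between the other sorts, so the list and all genes are not comparable in this share. With scaling by library size alone, the median log2 difference of all genes moved from 0.043 to 0.211 and the calls higher in Interstitial from 52.9% to 65.2% of all calls, and Btnl9 was again called.

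For Cyp1b1, Stc1 and Ngfr the fitted Interstitial and Sertoli levels were nearly equal. Cyp1b1 had a log2 difference of 0.00 ± 0.09 (edgeR adjusted p 0.973), Stc1 of 0.00 ± 0.13 (0.985) and Ngfr of 0.01 ± 0.13 (0.952). Ptpro (0.07 ± 0.15) and Srpx2 (-0.06 ± 0.18) were also close to 0. Pdyn (-0.25 ± 0.18), Itih5 (-0.25 ± 0.14) and Otof (-0.35 ± 0.20) had lower values in Interstitial and were not called, with edgeR adjusted p of 0.264, 0.144 and 0.154. The median over the 9 genes was 0.00, against 0.04 over all genes tested. The Sost value rests on few reads: it was 1.95 without Interstitial replicate A and 1.82 without Sertoli replicate B. Otof passed without Sertoli replicate A (-0.58, edgeR adjusted p 0.0487), and Itih5 without Leydig replicate A (-0.25, 0.0457).

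**Figure D2:**
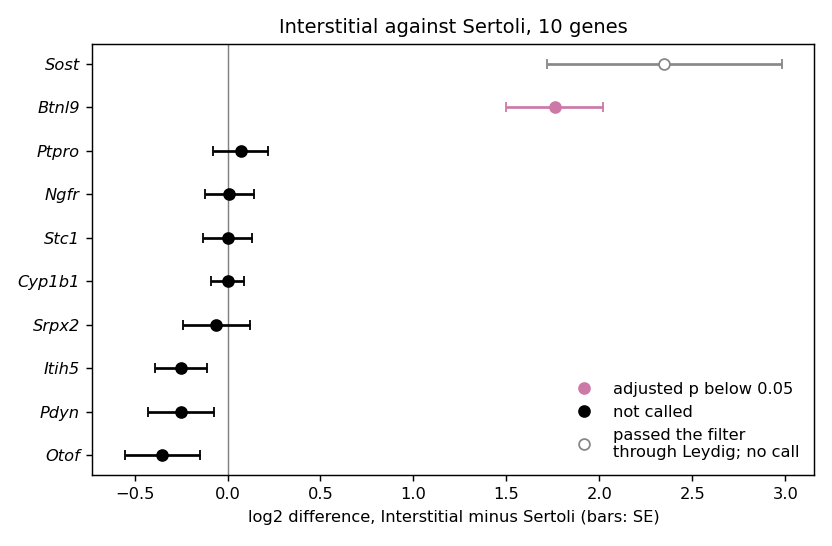
Fitted log2 difference, Interstitial minus Sertoli, of the 10 genes. Points are edgeR estimates from replicates A and B, bars are standard errors, and colour marks an adjusted p below 0.05. Sost is drawn open because it passed the low-count filter through Leydig and has no call. Sost (2.35) and Btnl9 (1.76) lie far to the right, and the other 8 lie between -0.35 and 0.07.

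The pools differed within the Leydig sort. Replicate B was lower than replicate A for 9 of the 10 genes, by ratios of 0.713 for Pdyn to 0.989 for Sost, and higher for Btnl9 (1.29). The 6 fetal Leydig markers had ratios of 0.457 to 0.811, all below 1, and the 7 interstitial progenitor markers 0.735 to 0.936. The 9 endothelial markers had ratios of 1.02 to 1.48, all above 1. Larger shifts to replicate B were seen for germ cell markers (2.39 to 5.25), red cell markers (1.83 to 9.57) and macrophage markers (1.27 to 2.7), again all above 1. Leydig replicate B also had the largest share of reads outside annotated genes, 38.52% against 32.32% in replicate A. In the Interstitial sort 9 of the 10 genes were lower in B as well (0.588 to 1.02), and in the Sertoli sort 5 were (0.349 to 1.4). The part of these cell types and of RNA quality in the levels of the 10 genes was not tested.

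Pool B against pool A was tested with the population as a term, over replicates A and B of all populations. The letters could not be shown to pair the samples across populations. The B minus A differences correlated at 0.248 for Leydig and Interstitial, 0.018 for Leydig and Sertoli and 0.1 for Interstitial and Sertoli. Pool A and pool B here name the letters alone. None of the 10 genes was called by edgeR, DESeq2 or limma voom, and edgeR called 0.903% of all genes, 0.587% as higher in pool B and 0.316% as higher in pool A. Without the filter on low counts Ngfr and Itih5 passed. With all 9 libraries Itih5 did, in a fit that counts replicate C, taken as a mix of A and B, as independent. At an unadjusted p under 0.05 edgeR had 3 of the 10, Itih5 (-0.25 ± 0.07, edgeR adjusted p 0.143), Ngfr (-0.24 ± 0.07, 0.176) and Ptpro (-0.25 ± 0.08, 0.229). The median log2 difference was -0.16 over the 10 genes and 0.00 over all genes. The ratio of Leydig to Interstitial was smaller in pool B than in pool A for 7 of the 10 genes, such as Pdyn (2.6 in B and 3.47 in A) and Otof (2.85 in B and 3.73 in A). It was larger in pool B for the other 3, Btnl9 (3.3 in B and 2.11 in A), Sost (3.96 in B and 2.36 in A) and Srpx2 (3.07 in B and 2.4 in A). These differences between pools rest on single libraries and were not tested.

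**Figure D3:**
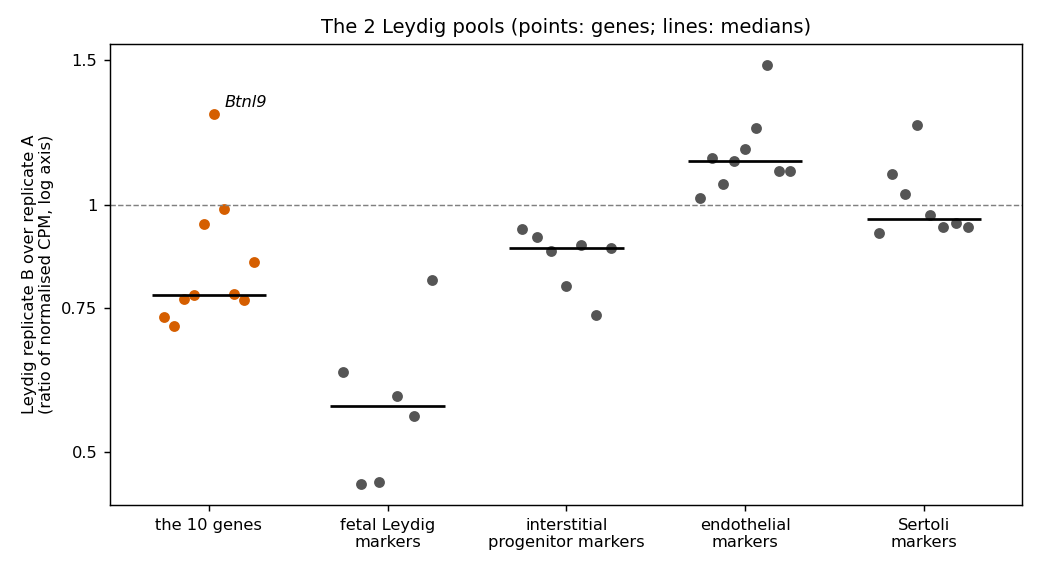
Ratio of normalised CPM in Leydig replicate B to replicate A (log axis) for the 10 genes and for marker lists. Points are genes and lines are medians. The medians are 0.778 for the 10 genes, 0.57 for fetal Leydig markers and 1.13 for endothelial markers, and Btnl9 lies at 1.29.

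The genes whose profile over the 9 libraries was nearest to the median profile of the 10 were found among 13013 other genes, by the root mean square difference of centred log2 CPM (prior count 2). The nearest was Vcam1, a cell adhesion ligand of integrin alpha 4 (0.145), and Itga4, which encodes that integrin chain, was among the 10 nearest (0.175). Vcam1 was at 45.7, 34.9 and 42.4 CPM in Leydig, at 14.5, 13.1 and 14.7 in Interstitial and at 15.7, 17.6 and 17.6 in Sertoli. The others were the matrix protease genes Mmp28 (0.158) and Adamts5 (0.19), the growth factor genes Nrg1 (0.163) and Inhba (0.184), and Gpr174 (0.166), Slitrk2 (0.17), Chst1 (0.184) and Art3 (0.193). Within the list the difference from the median profile was lowest for Ngfr (0.084), and 8 genes stayed at or under 0.207. Btnl9 (0.885) and Sost (0.834) had profiles of another shape, with lower Sertoli levels.

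**Figure D4:**
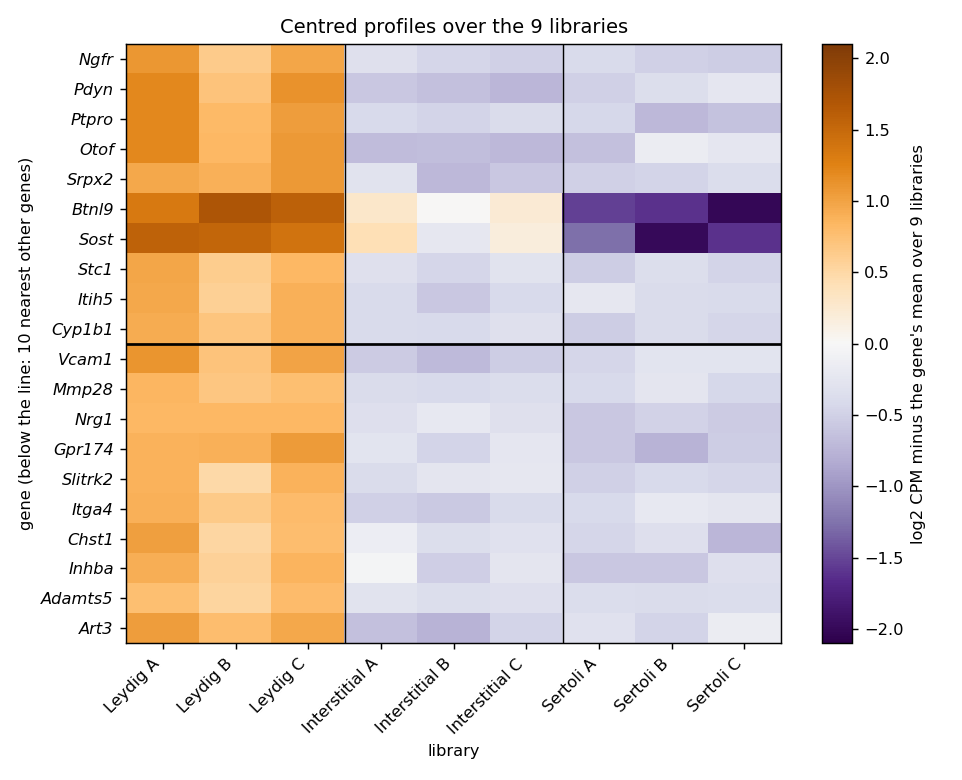
Log2 CPM in the 9 libraries, centred on the mean of each gene, for the 10 genes (above the line) and the 10 nearest other genes (below it). All rows are highest in the Leydig libraries, and Btnl9 and Sost differ from the rest in their low Sertoli values.

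Partners and relatives of the 10 genes were followed in 10 lists with 96 genes, of which 77 were tested and none is a member. Of these, 7 were higher in Leydig than in both other sorts, against 3.72% of all genes tested. These were Bdnf, Ntf3, Sorcs2, Sorcs3, Plau, Hgf and Myof, or 9.09% of the genes tested. Without Leydig replicate A the number was 2, without Interstitial replicate B 3, and without Interstitial replicate A 4. Plau and Myof were called under all 15 alternatives, and Ntf3 under 8 of them. None was lower in Leydig than in both by edgeR, also at an unadjusted p under 0.05, by DESeq2 or by limma voom, against 2.29% of all genes.

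The neurotrophin list, around Ngfr, held 4 of the 7. Of its 14 tested genes, 6 were higher in Leydig than in Sertoli and 4 lower, and 8 were higher than in Interstitial and 2 lower. Bdnf, a ligand of p75, was at 3.3 ± 0.35 CPM in Leydig, 1.92 ± 0.537 in Interstitial and 1.2 ± 0.165 in Sertoli (SD, n = 2). The ligand gene Ntf3 was at 8.56 ± 0.406, 6.18 ± 0.519 and 1.89 ± 0.323 CPM in Leydig, Interstitial and Sertoli. The p75 co-receptor gene Sorcs2 was at 150 ± 15.1 CPM in Leydig, 69.3 ± 1.77 in Interstitial and 120 ± 10.1 in Sertoli. Its relative Sorcs3 was at 11.5 ± 0.37, 8.42 ± 0.303 and 1.99 ± 0.306 CPM in Leydig, Interstitial and Sertoli.

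In the urokinase list, around Srpx2, 5 of 8 genes were higher in Leydig than in Sertoli and 2 lower, and 5 were higher than in Interstitial. Plau, the urokinase gene, was at 33.9 ± 0.217 CPM in Leydig, 18.4 ± 0.253 in Interstitial and 10.6 ± 0.7 in Sertoli (SD, n = 2). The urokinase receptor gene Plaur, to whose product the Srpx2 protein binds, was higher in Leydig than in Interstitial (0.57 ± 0.20, edgeR adjusted p 0.0439). Against Sertoli Plaur was at 0.53 ± 0.20 and was not called (edgeR adjusted p 0.0658). Hgf, a growth factor gene, was higher in Leydig by 0.35 ± 0.11 against Interstitial and 1.75 ± 0.12 against Sertoli. Among the 3 tested relatives of Otof, the ferlin Myof was higher in Leydig by 0.69 ± 0.07 against Interstitial and 0.57 ± 0.07 against Sertoli.

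In the opioid list, around Pdyn, 4 of 8 tested genes were called against Interstitial, 3 of them lower in Leydig, and 1 was called against Sertoli, lower in Leydig. Cpe, a prohormone-trimming carboxypeptidase, was at 92.6 ± 4.21 CPM in Leydig, 43.6 ± 1.04 in Interstitial and 202 ± 8.42 in Sertoli and was called in both comparisons. The peptide precursor genes Pnoc (-4.21 ± 0.60) and Penk (-3.18 ± 0.39) and the prohormone chaperone gene Scg5 (-1.58 ± 0.30) were lower in Leydig than in Interstitial on the log2 scale. Pnoc was near the floor outside Interstitial, at 0.0295 ± 0.000894 CPM in Leydig, 0.611 ± 0.0814 in Interstitial and 0 in Sertoli. Penk was at 0.278 ± 0.0957 CPM in Leydig, 2.58 ± 0.934 in Interstitial and 0.259 ± 0.0488 in Sertoli. Oprk1, the dynorphin receptor gene, was too low to be tested, at 0.149 ± 0.0878, 0.12 ± 0.00516 and 0.184 ± 0.136 CPM in Leydig, Interstitial and Sertoli. Pcsk2, a protease that cleaves prodynorphin, was at 0.607 ± 0.206 CPM in Leydig, 0.325 ± 0.171 in Interstitial and 0.304 ± 0.152 in Sertoli and was called in neither comparison.

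Among secreted Wnt inhibitors and the sclerostin receptors, 6 of 16 were higher in Leydig than in Sertoli and 5 lower, and 5 were higher than in Interstitial and 5 lower. Sostdc1, the nearest relative of Sost, differed by 2.85 ± 0.26 against Sertoli and was not called against Interstitial (0.44 ± 0.22, edgeR adjusted p 0.137). Notum, a Wnt-inactivating enzyme, was lower than in Interstitial (-2.80 ± 0.24), as was the Wnt inhibitor gene Sfrp5 (-3.96 ± 0.83), which was near 0 in Leydig at 0.0295 ± 0.000894 CPM, against 0.504 ± 0.302 in Interstitial. The sclerostin receptor gene Lrp4 was at 61.4 ± 7.42 CPM in Leydig, 29.8 ± 1.35 in Interstitial and 173 ± 40.4 in Sertoli. In the stanniocalcin list, Stc2 was at 41.3 ± 2.39 CPM in Leydig, 9.34 ± 0.0862 in Interstitial and 97.9 ± 11.4 in Sertoli. Pappa, which encodes PAPP-A, kept the same order, at 22.1 ± 0.587, 7.54 ± 0.405 and 53.9 ± 2.11 CPM in Leydig, Interstitial and Sertoli. Its relative Pappa2 was at 4.86 ± 0.915, 30 ± 0.824 and 0.557 ± 0.165 CPM in the same sorts.

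In the hyaluronan list, around Itih5, 3 of 12 genes were higher in Leydig than in Interstitial and 1 lower, and 1 was higher than in Sertoli and 2 lower. Cemip, a hyaluronan-degrading protein, was at 26.8 ± 0.872 CPM in Leydig, 5.19 ± 1.1 in Interstitial and 92.3 ± 4.19 in Sertoli. Has2, a hyaluronan synthase, was at 6.96 ± 0.434, 15.6 ± 3.63 and 2.65 ± 0.0178 CPM in Leydig, Interstitial and Sertoli. Itih3, a related heavy chain, differed by 1.48 ± 0.45 against Interstitial (edgeR adjusted p 0.0268). Of 3 tested phosphatases related to Ptpro, the endothelial phosphatase gene Ptprb was higher in Leydig than in Sertoli. Ptprq is given with no call (log2 difference 4.22 ± 1.07 against Sertoli), since it was near the floor. It stood at 0.338 ± 0.0522 CPM in Leydig, 0.269 ± 0.215 in Interstitial and 0.0147 ± 0.0208 in Sertoli. The butyrophilins Btn1a1 (2.30 ± 0.22) and Btn2a2 (1.34 ± 0.19) were also higher in Leydig than in Sertoli and were not called against Interstitial.

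Of the genes around Cyp1b1, 2 of 6 tested were lower in Leydig than in Sertoli and 2 were higher than in Interstitial. The receptor genes Ahr (18.4 ± 1.06 CPM in Leydig, 20.7 ± 2.18 in Interstitial and 16.7 ± 0.364 in Sertoli) and Arnt (61.5 ± 1.53, 53.9 ± 0.661 and 53.9 ± 9.35 CPM) were called in neither comparison. The receptor's target genes Nqo1 (-0.92 ± 0.14) and Tiparp (-0.79 ± 0.18) were lower in Leydig than in Sertoli. Tiparp (0.58 ± 0.18) and the P450 reductase gene Por (0.33 ± 0.07) were higher in Leydig than in Interstitial.

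**Figure D5:**
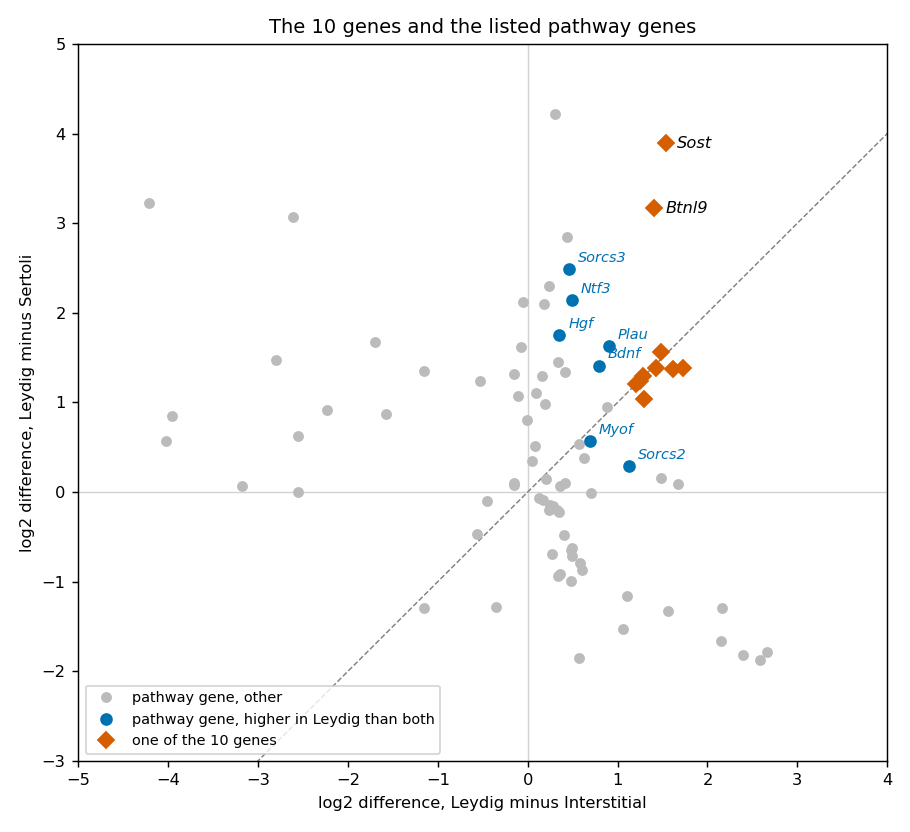
Log2 difference of Leydig minus Interstitial (horizontal) and Leydig minus Sertoli (vertical) for the 10 genes and 77 listed pathway genes. The dashed line marks equal Interstitial and Sertoli levels. Of the 10 genes, 8 lie near that line and Btnl9 and Sost lie above it, as do 5 of the 7 pathway genes higher in Leydig than in both.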

How the data were processed

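RNA of 3 sorted populations was sequenced in 9 libraries, each run over 4 lanes. The deposited table gives raw read counts per gene and lane, made by the authors with TopHat2 2.0.6 on mm10 and HTSeq, per the submitters' processing notes. The authors also deposited tables with log2 fold changes, p-values and 2 limma scores (t and B), per the file headers. Lanes were summed. The 6 libraries of replicates A and B, which leave 3 residual degrees of freedom, were fitted together with edgeR 4.0.16 in R 4.3.3 (TMM, filterByExpr with a minimum count of 10, Benjamini-Hochberg adjustment over all genes tested, threshold 0.05), with limma 3.58.1 and DESeq2 1.42.0 as alternatives. The pool fit had 2 residual degrees of freedom. Levels are CPM with TMM factors from all 9 libraries and differ slightly in scale from the fit. P-values rest on how pools vary, which may be less than animals do. Summary lines for reads outside genes (32.23 to 38.52%) and ambiguous reads (0.62 to 0.77%) were left out. Symbols and coordinates came from GENCODE M21 (GRCm38, also called mm10), which named 36638 of the identifiers. The fit was tested on simulated counts. The genes, lists and motifs were chosen with earlier results of these data known.

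All 10 genes are named. Items withheld from the partner lists are not reported here and enter no count of them. Of each partner list, genes called in the same direction against both sorts are named, and otherwise up to 3 with the largest called difference. Ptprq was named by this rule but is given with no call. Cpe, Pcsk2, Oprk1, Lrp4, Plaur, Ahr and Arnt were named beside these as known partners of the 10 genes, after their values were seen.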

Additional observations from a re-analysis of the deposited data

How the results depend on the processing

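Of the 9 genes that passed the low-count filter in every population, 1 was called between Interstitial and Sertoli, which was Btnl9. Sost passed that filter through its Leydig libraries and is left out of these counts. With a filter at 1 CPM in 2 libraries Btnl9 was again called. The log2 difference of Btnl9 was 1.67 to 1.95 when each library was left out in turn. The replicate letters could not be shown to pair the samples, since the B minus A differences of the populations correlated at 0.248, 0.018 and 0.1 across genes. With the replicate block the number was 3, Itih5 being added (-0.25, edgeR adjusted p 0.0235), and with all 9 libraries it was 3, with Otof added (-0.36, edgeR adjusted p 0.0301). Pool B against pool A called 163 genes. It called 594 without a filter on low counts and 613 with all 9 libraries, with 2 and 1 of the 10 genes among them, and 54 to 353 when each library was left out (353 and 349 without Leydig A and B, 54 and 75 without Interstitial A and B, 97 and 98 without Sertoli A and B). The 7 partner genes higher in Leydig than in both became 5 with DESeq2, 5 with library size alone, 5 with the first 2 lanes and 12 with all 9 libraries, and 2 to 8 when each library was left out. The block gave 10. Those lower than in both were 2 with all 9 libraries and 0 to 1 when each library was left out. Counts of genes called between populations stayed within 1.5 times under these alternatives. The ratio of Leydig to the higher other sort kept its direction wherever it was computed. It was not computed for DESeq2, limma voom or the replicate block, nor for Sost with the filter at 1 CPM. The genes were chosen by this ratio in the same counts, so its direction gives no support. Low counts limit Sost most.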
